A study of Homo sapiens with 6 samples.

Results

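The 30 genes described here carry glucose into the cell, split it to pyruvate, pass lactate out of the cell, or run the pentose phosphate pathway. They were chosen by name, as the glucose transporters, enzymes and monocarboxylate transporters of these steps, and all 30 were found among the 24462 gene symbols of the count files. The levels come from H460, an established human lung cancer cell line derived from a large-cell carcinoma with a mutated KEAP1 gene. All cells were grown in RPMI 1640 with 10% serum. The depleted group (3 libraries) was kept for 24 h without glutamine in medium with dialyzed serum, and the replete group (3 libraries) is labelled as having glutamine. The labels do not give the serum of the replete cells over those hours or say whether glutamine was added back to them. They also do not tell separate cultures from repeat libraries of 1 culture, so the spread behind each p-value may be technical. 3′-end mRNA libraries were made from 500 ng of total RNA.

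Glycolysis turns glucose into pyruvate with a gain of ATP and NADH, and cancer cells often reduce the pyruvate to lactate and export it. The pentose phosphate pathway leaves glycolysis at glucose phosphate. Its oxidative branch yields NADPH for biosynthesis and redox defence, and its non-oxidative branch exchanges sugar phosphates with glycolysis and supplies ribose for nucleotides. Glutamine is the other large carbon source of many cultured tumour cells, feeding the tricarboxylic acid cycle and nucleotide synthesis.

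The libraries held 7550849 to 10914899 counts, and a count of 0 allows up to 3 counts, or 0.275 to 0.397 CPM, which covers counting error only. Levels below are normalised CPM, the usual scale of counts relative to a library's total, here after trimmed-mean scaling of the totals, and log2 fold changes are depleted minus replete on the same scale. With scaling by library totals alone, log2 fold changes shift by a median of −0.23. Depleted replicate 2 was the highest depleted library for 23 of the 30 genes and for 43.4% of all tested genes, and the counts of genes that rose and fell were the same without it, 6 and 21. Of 6 epithelial markers, KRT8, KRT18, KRT19 and KRT7 were measured, whereas EPCAM and CDH1 were at or below 0.47 and 0.12 normalised CPM in every library. Summed, the epithelial markers lay at 1924 to 1933 in replete and 856 to 1005 in depleted libraries, but they went different ways. By edgeR, KRT19 (log2 fold change −1.87) and KRT8 (−1.05) fell, KRT7 rose (2.32) and KRT18 did not pass (−0.06, adjusted p = 0.461). Summed over their lists, 4 endothelial markers reached at most 0.613, and 6 leukocyte markers lay at 4.93 to 6.75 in depleted and 7.03 to 10.9 in replete libraries. Fibroblast markers summed to 26.2 to 38.8 in replete and 42.4 to 124 in depleted libraries, with COL1A1 at 61.0 in depleted replicate 3 and at most 12.4 in every other library. COL3A1 (log2 fold change 1.45) and PDGFRB (1.60) were higher in every depleted library and LUM (−1.002) was lower in every one, all 3 passing by edgeR. Whether these markers bear on the results below was not tested.

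Most of the 30 genes were lower in cells without glutamine, and all 30 passed the filter on low counts. By edgeR's quasi-likelihood test at an adjusted p under 0.05, 21 fell, 6 rose and 3 did not pass. Over all 12739 tested genes 39.4% fell and 39.1% rose, and 78.6% passed in either direction. With library totals alone, 21 of the 30 fell and 5 rose, against 46.5% and 32.4% of all tested genes. In bulk RNA, fewer cells of a kind and less RNA per cell cannot be told apart. The median log2 fold change was −0.58 for the 30 genes and −0.02 over all tested genes. The ranges of the groups lay apart for 26 of the 30 genes, as for 80.9% of all tested genes. More than 2-fold lower were 8 of the 30, against 23.7% of all tested genes, and 1 was more than 2-fold higher, against 21.8%. The 30 genes together took 0.848%, 1.01% and 0.894% of the counts of the depleted libraries and 1.24%, 1.27% and 1.27% of the counts of the replete libraries, so every depleted library lay below every replete one.

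**Figure D1:**
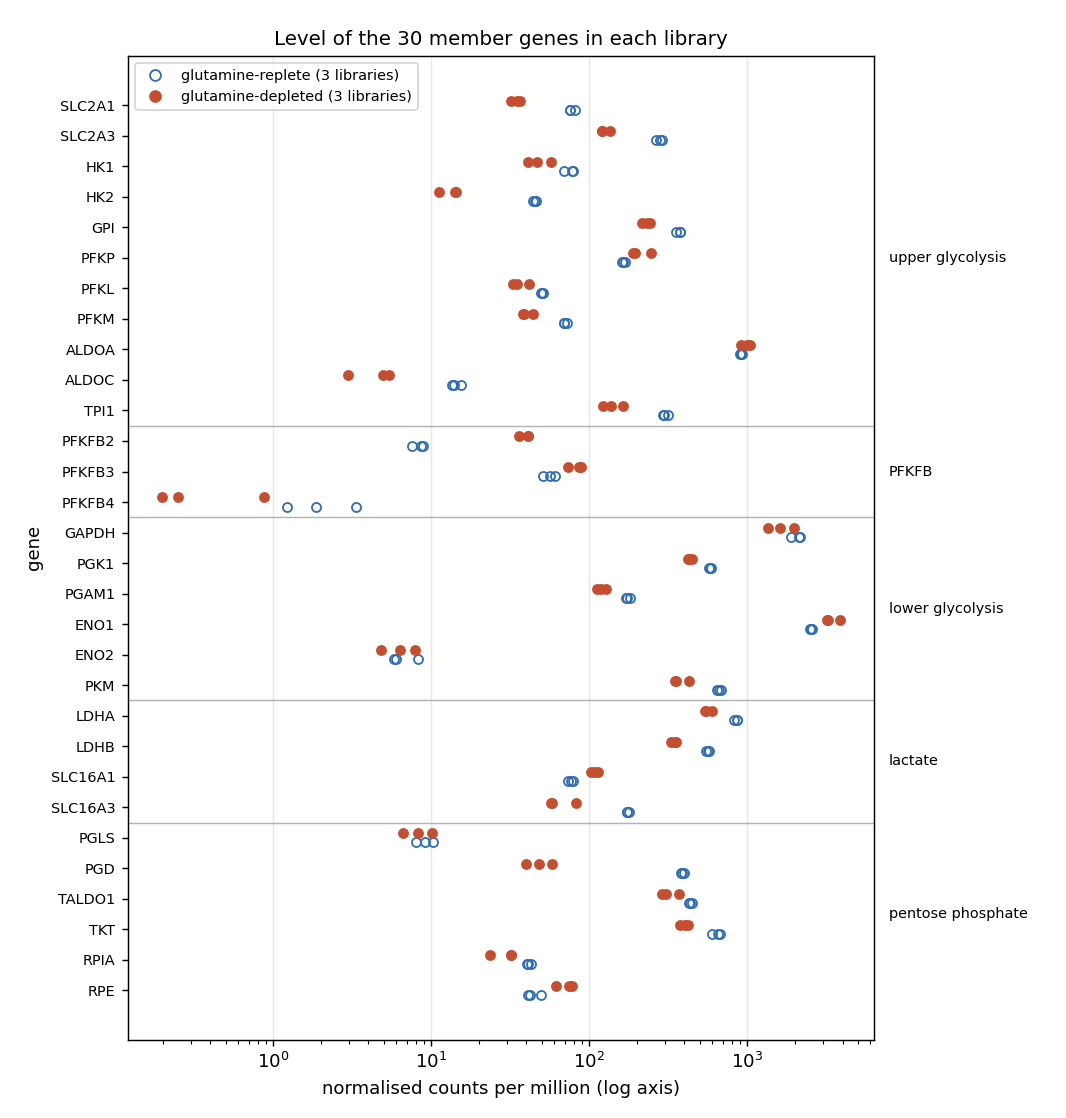
Normalised CPM (log axis) of each of the 30 genes in each library, ordered by step, with filled points for the 3 depleted and open points for the 3 replete libraries. The groups lie apart for most genes, with PGD and PFKFB2 the widest separated in opposite directions and ALDOA, GAPDH, ENO2 and PGLS overlapping.

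Promoter sequence is shown for 5 genes that stand for the contrasts within the pathway. PGD fell and RPE rose among pentose phosphate enzymes, PKM fell and ENO1 rose in lower glycolysis, and LDHA, which fell, is a textbook target of hypoxia-inducible factors and MYC. Each run is the 250 bases before a RefSeq transcription start on GRCh38.p14, written 5′ to 3′ on the gene's strand. They lie at chr1:10398814-10399063 (plus strand) for PGD, chr2:210002388-210002637 (plus) for RPE, chr15:72231191-72231440 (minus) for PKM, chr11:18394313-18394562 (plus) for LDHA and chr1:8878687-8878936 (minus) for ENO1. The submitters' processing notes name hg19 for the counts, and these positions are on GRCh38.p14 only. Capitals mark matches on either strand to ACGTG (the core of the hypoxia response element), CACGTG (the E-box bound by MYC and by the glucose sensors MondoA and ChREBP, which holds ACGTG on both strands) and TGACNNNGC (the core of the antioxidant response element bound by NRF2). LDHA has 2 listed starts, and the one with more matches is shown.
PGD: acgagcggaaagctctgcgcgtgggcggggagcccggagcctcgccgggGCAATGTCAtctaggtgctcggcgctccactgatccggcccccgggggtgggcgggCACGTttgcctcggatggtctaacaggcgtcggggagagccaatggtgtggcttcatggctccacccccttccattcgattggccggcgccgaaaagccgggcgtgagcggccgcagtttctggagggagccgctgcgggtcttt
RPE: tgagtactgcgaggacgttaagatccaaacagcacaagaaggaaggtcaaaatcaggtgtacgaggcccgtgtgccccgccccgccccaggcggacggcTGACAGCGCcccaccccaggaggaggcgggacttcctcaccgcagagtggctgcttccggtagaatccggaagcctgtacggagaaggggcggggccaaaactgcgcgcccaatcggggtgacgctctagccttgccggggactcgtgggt
PKM: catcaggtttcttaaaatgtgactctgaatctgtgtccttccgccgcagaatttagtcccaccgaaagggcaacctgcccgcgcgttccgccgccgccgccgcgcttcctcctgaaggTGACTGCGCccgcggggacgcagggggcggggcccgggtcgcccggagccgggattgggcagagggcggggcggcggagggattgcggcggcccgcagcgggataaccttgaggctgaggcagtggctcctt
LDHA: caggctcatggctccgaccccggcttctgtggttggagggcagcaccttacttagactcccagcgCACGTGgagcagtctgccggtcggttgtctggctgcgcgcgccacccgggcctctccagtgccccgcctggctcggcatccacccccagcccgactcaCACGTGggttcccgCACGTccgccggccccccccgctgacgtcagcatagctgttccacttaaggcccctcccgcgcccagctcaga
ENO1: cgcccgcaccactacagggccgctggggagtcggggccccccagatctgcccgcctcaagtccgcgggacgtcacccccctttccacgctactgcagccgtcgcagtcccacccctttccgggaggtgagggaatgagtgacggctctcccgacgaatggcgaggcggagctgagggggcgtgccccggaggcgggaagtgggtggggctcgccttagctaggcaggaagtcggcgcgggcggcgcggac
A match is a description of letters and not a bound site. The PGD window held 1 ACGTG and 1 TGACNNNGC, beginning 145 and 201 bases before the start, both on the reverse strand. RPE and PKM, which moved in opposite directions, each held 1 TGACNNNGC, beginning 151 and 132 bases before the start. LDHA held 2 CACGTG motifs, which account for 4 of its 5 ACGTG matches, and ENO1 held none of the 3 motifs. The table of starts listed 52 windows for 27 of the 30 genes, without SLC2A3, PFKFB2 or SLC16A1. ACGTG stood in 32.7% of these windows and in 18.5% of all 35116 windows of the table. For CACGTG the shares were 11.5% and 6.34%, and for TGACNNNGC 13.5% and 10.9%.

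Transcripts of both glucose transporters among the 30 genes, which open the pathway, fell more than 2-fold. SLC2A1, which encodes the widely expressed transporter GLUT1, was at 35.0, 36.4 and 32.0 normalised CPM in depleted and 81.2, 75.2 and 75.6 in replete libraries (log2 fold change −1.17, SE 0.09, edgeR adjusted p = 7.51e-08). SLC2A3, which encodes the high-affinity transporter GLUT3, was at 119.8, 134 and 120.3 in depleted and 265, 282 and 288 in replete libraries (−1.16, SE 0.08, edgeR adjusted p = 1.36e-08). Both transporters were lower in every depleted library than in any replete one. The log2 ratio of SLC2A1 to SLC2A3 counts was −1.86 ± 0.07 (SD, n = 3) in depleted and −1.85 ± 0.12 in replete libraries with overlapping groups (two-sided exact permutation p = 0.9). Exons of SLC2A1 overlap an antisense gene, SLC2A1-AS1, which was at most 2.46 normalised CPM and fell too (−2.27, edgeR adjusted p = 0.000154). Among other genes of the transporter family, SLC2A8 rose (0.71, edgeR adjusted p = 0.0001). SLC2A13 (−1.81, edgeR adjusted p = 1.05e-06) and SLC2A6 (−0.615, edgeR adjusted p = 0.0132) fell, and SLC2A12 did not pass. After a trend over GC content and length was removed, SLC2A6 did not pass either (−0.25, edgeR adjusted p = 0.275).

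Hexokinase traps glucose as glucose phosphate, and HK1 and HK2 both fell. HK2, the inducible isozyme of many tumours, was at 14.3, 11.2 and 14.2 normalised CPM in depleted and 46.2, 45.3 and 43.8 in replete libraries, a 3.39-fold difference (log2 fold change −1.76, SE 0.12, edgeR adjusted p = 1.62e-08). HK1, the constitutive isozyme, was at 40.7, 56.9 and 46.7 against 79.4, 77.8 and 69.5 (−0.66, SE 0.12, edgeR adjusted p = 0.000183). HK2 was lowest and HK1 highest in depleted replicate 2, and neither gene's groups overlapped. HK2 made up 26.0%, 16.5% and 23.3% of the summed HK1 and HK2 counts in depleted and 36.8%, 36.8% and 38.7% in replete libraries. HKDC1, another hexokinase gene and not among the 30, was at 16.7, 19.1 and 17.8 against 12.1, 16.3 and 11.7. It rose (0.42, edgeR adjusted p = 0.0223) but did not pass with library totals alone (0.19, edgeR adjusted p = 0.257). GPI, the isomerase that follows, fell by 0.68 on the log2 scale, from 368 ± 13.3 to 229 ± 13.0 (edgeR adjusted p = 1.04e-06).

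Phosphofructokinase catalyses the committed step of glycolysis, and its 3 subunit genes moved apart. PFKP, the platelet-type subunit, was at 188, 247 and 194 normalised CPM in depleted and 161, 163 and 168 in replete libraries, and rose (log2 fold change 0.36, SE 0.10, edgeR adjusted p = 0.00472). With library totals alone its log2 fold change was 0.13 and no longer passed (edgeR adjusted p = 0.229, the highest over its alternatives). PFKM, the muscle-type subunit, was at 38.2, 43.9 and 38.5 against 71.7, 69.1 and 69.3 (−0.80, edgeR adjusted p = 2.85e-06). PFKL, the liver-type subunit, fell by 0.46 on the log2 scale, from 50.3 ± 0.612 to 36.5 ± 4.50 (edgeR adjusted p = 0.00107), and had a log2 fold change of −0.12 after a trend over GC content and length was removed (edgeR adjusted p = 0.202, the highest over its alternatives). The 3 genes summed to 261, 333 and 265 in depleted and 284, 282 and 287 in replete libraries, with overlapping groups. PFKP made up 72.0%, 74.3% and 73.0% of their counts in depleted and 56.7%, 57.8% and 58.4% in replete libraries, a share that does not depend on scaling. Exons of PFKM share 413 bases with SENP1 on the opposite strand, 0 of them within the last 500 bases of its transcripts, and SENP1 rose by 1.09.

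Aldolase and triose phosphate isomerase end the upper stretch. ALDOA, the main aldolase of proliferating cells, was at 911, 1043 and 988 normalised CPM in depleted and 897, 922 and 917 in replete libraries (log2 fold change 0.10, SE 0.06, edgeR adjusted p = 0.152). The groups overlapped, and the sign was negative with library totals alone (−0.12). ALDOA passed as higher without depleted replicate 1 (0.16, edgeR adjusted p = 0.0269) and with the GC and length trend removed (0.25, edgeR adjusted p = 0.00113), with an adjusted p of 0.00113 to 0.949 over its edgeR, DESeq2 and limma alternatives. ALDOC, the brain-type aldolase, was at 4.93, 5.37 and 2.99 against 13.9, 15.3 and 13.5, a 3.19-fold fall from a low level (−1.67, SE 0.20, edgeR adjusted p = 3.87e-06). TPI1, which interconverts the triose phosphates, was at 122, 164 and 137 against 298, 315 and 293, a 2.14-fold fall (−1.10, SE 0.10, edgeR adjusted p = 2.69e-07). Its 3′ end shares 14 bases of exon with that of SPSB2 on the opposite strand, which also fell but was at most 13.6 normalised CPM.

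The PFKFB enzymes set the level of a fructose bisphosphate that activates phosphofructokinase and is not its product, and the 3 expressed members split. PFKFB2, the heart-type enzyme controlled by phosphorylation, was at 40.6, 40.7 and 35.7 normalised CPM in depleted and 7.54, 8.89 and 8.59 in replete libraries, a 4.69-fold rise (log2 fold change 2.23, SE 0.13, edgeR adjusted p = 3.18e-09). Of all tested genes, 93.5% had a lower log2 fold change. PFKFB3, the inducible enzyme with high kinase activity, was at 86.4, 88.7 and 73.3 against 60.6, 56.4 and 51.2, a 1.48-fold rise (0.56, SE 0.10, edgeR adjusted p = 0.000182). PFKFB4 had 2, 7 and 2 counts in depleted and 33, 16 and 10 counts in replete libraries. It fell (−2.34, SE 0.56, edgeR adjusted p = 0.00177). On unscaled library totals, the ratio of pooled shares, replete over depleted, was 6.20, with an exact 95% counting interval of 3.23 to 13.1. That interval covers counting error only and leaves out the spread between libraries. Without depleted replicate 2 its log2 fold change was −3.24, and every depleted library lay below every replete one. Exons of PFKFB4 overlap UCN2 on the same strand, and whether the genes share counts was not tested. Within the family, PFKFB2 went from 10.5%, 13.2% and 14.1% of the counts in replete to 31.9%, 31.3% and 32.7% in depleted libraries. The opposite-strand gene YOD1 overlaps PFKFB2 in the full GENCODE 29 annotation and rose too (1.83), although transcripts of the basic set share 0 exon bases.

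**Figure D2:**
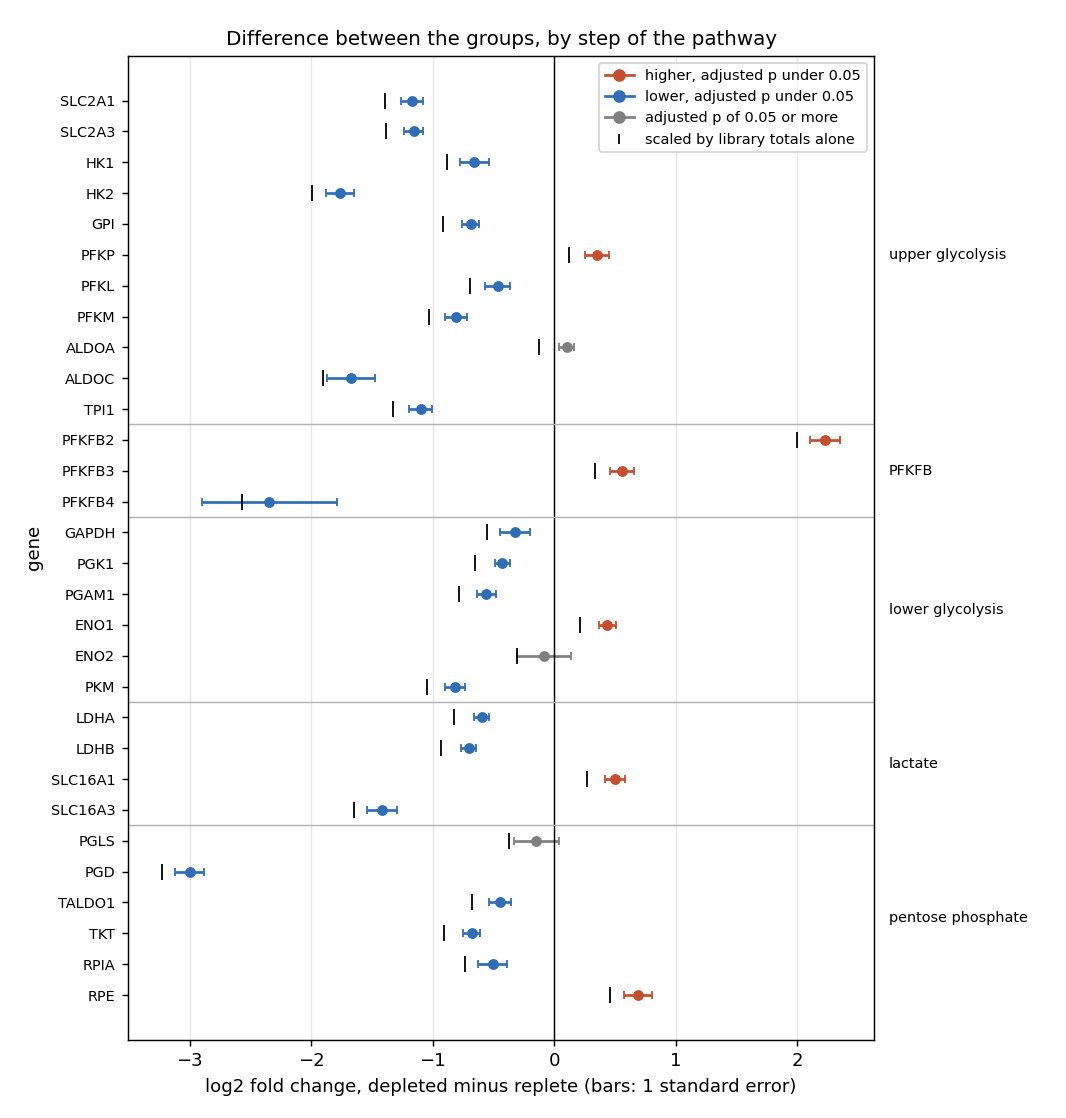
Log2 fold change (depleted minus replete) of each of the 30 genes with 1 standard error, ordered by step, coloured by direction where the edgeR adjusted p was under 0.05, with black ticks for scaling by library totals alone. PGD at −3.0 and PFKFB2 at 2.23 mark the 2 ends, and the ticks lie to the left of the points.

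Lower glycolysis, from glyceraldehyde phosphate to pyruvate, had no gene that differed by 2-fold or more with trimmed-mean scaling, while PKM passed 2-fold with library totals alone (log2 fold change −1.04) and with upper quartile factors (−1.02). GAPDH, the dehydrogenase that makes NADH, was at 1350, 1960 and 1613 normalised CPM in depleted and 1895, 2142 and 2125 in replete libraries. Depleted replicate 2 lay above replete replicate 1, so the groups overlapped, and the fall was small (log2 fold change −0.32, SE 0.12, edgeR adjusted p = 0.0403). It did not pass without depleted replicate 1 (edgeR adjusted p = 0.0521), depleted replicate 3 (0.112), replete replicate 2 (0.0685) or replete replicate 3 (0.0804), with DESeq2 size factors (0.0519), with no count filter (0.105), or with the GC and length trend removed (−0.09, 0.325). PGK1, the first ATP-yielding kinase, was at 427, 448 and 418 against 569, 591 and 577 (−0.43, SE 0.06, edgeR adjusted p = 2.76e-05). PGAM1, the phosphoglycerate mutase, was at 118, 127 and 112 against 181, 171 and 174 (−0.56, SE 0.08, edgeR adjusted p = 1.77e-05). PGK1 and PGAM1 fell with no overlap between groups. Exons of PGK1 overlap ATP7A on the same strand, which rose by 1.27 from a level of at most 7.61 normalised CPM. PGAM4, a single-exon copy of PGAM1 that can share its reads, fell by 0.36 (edgeR adjusted p = 0.00689).

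The enolase and pyruvate kinase steps diverged. ENO1, the widely expressed enolase, was at 3172, 3867 and 3253 normalised CPM in depleted and 2564, 2488 and 2538 in replete libraries, a 1.36-fold rise (log2 fold change 0.44, SE 0.07, edgeR adjusted p = 9.64e-05). The rise passed under all 16 alternatives, at 0.21 to 0.54. Its exons overlap the antisense gene ENO1-AS1, which was at most 1.05 normalised CPM. ENO2, the neuronal enolase, was at 4.83, 6.37 and 7.84 against 5.81, 8.19 and 6.01, with overlapping groups (−0.08, edgeR adjusted p = 0.741) and a positive sign in 3 alternatives. PKM, which makes pyruvate and the last ATP of glycolysis, was at 354, 427 and 348 against 684, 639 and 662, a 1.76-fold fall (−0.81, SE 0.08, edgeR adjusted p = 8.47e-07). Counts per gene do not separate its M1 and M2 isoforms. GENCODE 29 names 62 pseudogenes after GAPDH, 13 after PGAM1, 6 after LDHA, 5 after PKM and 4 after ENO1, and how reads shared with such copies were counted is not given in the sources used here.

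Both lactate dehydrogenase genes fell, and the 2 lactate carriers among the 30 genes went opposite ways. LDHA, whose enzyme favours pyruvate reduction, was at 539, 595 and 545 normalised CPM in depleted and 821, 858 and 857 in replete libraries (log2 fold change −0.60, SE 0.06, edgeR adjusted p = 1.62e-06). LDHB, whose enzyme favours lactate oxidation, was at 329, 350 and 356 against 546, 569 and 567 (−0.70, SE 0.06, edgeR adjusted p = 3.11e-07). LDHA made up 60.5% to 63.0% of their counts in depleted and 60.1% to 60.2% in replete libraries. SLC16A3, which encodes the lactate exporter MCT4, was at 58.0, 82.1 and 57.1 against 177, 174 and 174, a 2.67-fold fall (−1.41, SE 0.12, edgeR adjusted p = 5.49e-07). SLC16A1, which encodes the bidirectional carrier MCT1, was at 108, 102 and 114 against 76.0, 73.0 and 79.1, a 1.42-fold rise (0.50, SE 0.08, edgeR adjusted p = 7.45e-05). SLC16A1 held 65.0%, 55.4% and 66.5% of the counts of the pair in depleted and 30.04%, 29.6% and 31.2% in replete libraries, and the ratio changed 3.82-fold. The 3′ end of SLC16A3 shares 336 bases of exon with that of CSNK1D on the opposite strand, and no source used here says that counting used strand. Without strand in the counting, part of either count may belong to the other. CSNK1D rose by 0.51, opposite to SLC16A3. SLC16A7, a lactate carrier not among the 30, fell from 40.9 ± 4.75 to 27.6 ± 3.19 (−0.57, edgeR adjusted p = 0.000742).

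**Figure D3:**
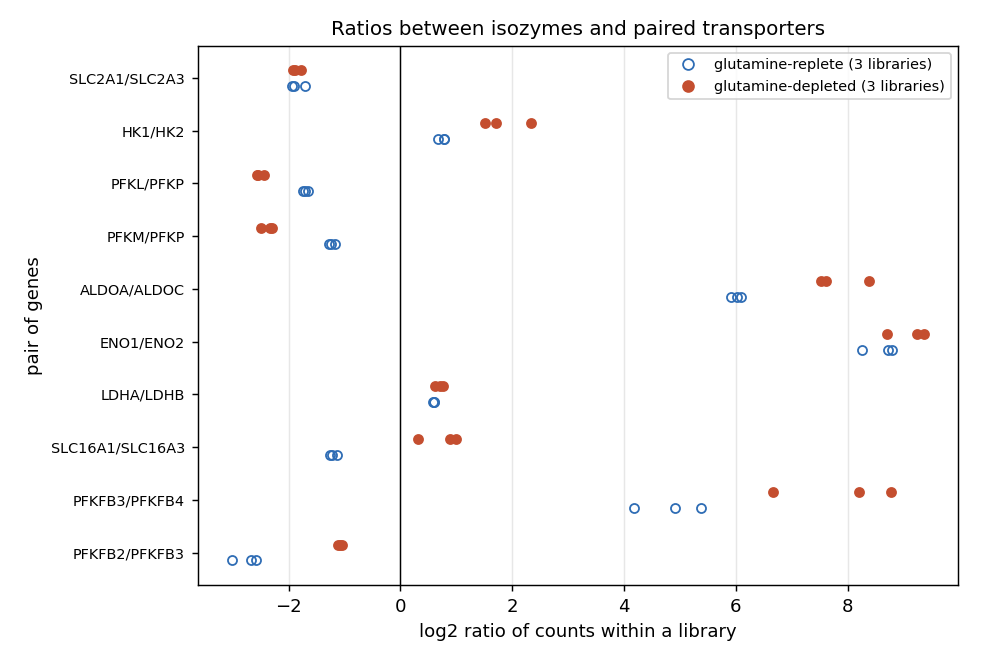
Log2 ratio of the counts of 2 genes within each library for 10 pairs of isozymes or transporters, filled points for depleted and open points for replete libraries. The groups separate in 8 pairs and overlap for SLC2A1/SLC2A3 and ENO1/ENO2, and only the SLC16A1/SLC16A3 ratio lies on opposite sides of 0.

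Ratios within a library are free of scaling between libraries, so 10 pairs were compared that way. In 8 pairs the groups did not overlap, each with a two-sided exact permutation p = 0.1, the smallest that 3 against 3 can give, and 0.125 adjusted over the 10 pairs. The difference in log2 ratio, depleted minus replete, was 1.11 for HK1/HK2, −0.82 for PFKL/PFKP, −1.15 for PFKM/PFKP and 1.83 for ALDOA/ALDOC. It was 1.94 for SLC16A1/SLC16A3, 1.67 for PFKFB2/PFKFB3, 3.06 for PFKFB3/PFKFB4 and 0.11 for LDHA/LDHB. The level of a ratio is not read as a comparison of the amounts of the 2 transcripts, whereas its change between groups does compare their changes.

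Of the 30 genes, PGD had the lowest log2 fold change over all 6 libraries, while without depleted replicate 2 PFKFB4 was lower (−3.24 against −3.14). PGD, phosphogluconate dehydrogenase, which makes NADPH in the oxidative branch, was at 39.6, 57.7 and 48.3 normalised CPM in depleted and 378, 386 and 397 in replete libraries. That 8.0-fold fall (log2 fold change −3.0, SE 0.12, edgeR adjusted p = 2.62e-10) left 3.20% of all tested genes with a lower log2 fold change. PGLS, the lactonase of the same branch, was at 6.61, 8.25 and 10.1 against 8.05, 10.3 and 9.08, with overlapping groups (−0.14, edgeR adjusted p = 0.484) and a positive sign in 2 alternatives.

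In the non-oxidative branch the differences were smaller and went both ways. TKT, transketolase, was at 374, 422 and 406 normalised CPM in depleted and 602, 652 and 670 in replete libraries (log2 fold change −0.68, SE 0.07, edgeR adjusted p = 1.22e-06). TALDO1, transaldolase, was at 288, 368 and 303 against 433, 449 and 424 (−0.45, SE 0.09, edgeR adjusted p = 0.000373). RPIA, the ribose phosphate isomerase, was at 32.1, 23.5 and 31.7 against 42.8, 40.5 and 40.9 (−0.51, SE 0.12, edgeR adjusted p = 0.00185). These 3 genes were lower in every depleted library. RPE, the ribulose phosphate epimerase, was at 74.9, 61.2 and 77.5 against 42.0, 41.0 and 49.6, a 1.61-fold rise (0.69, SE 0.11, edgeR adjusted p = 8.16e-05). RPE and KANSL1L run towards each other on opposite strands and share 837 bases of exon, 317 of them within the last 500 bases of transcripts of both. KANSL1L rose by 0.65, almost as much as RPE, and without strand in the counting the genes cannot be told apart.

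**Figure D4:**
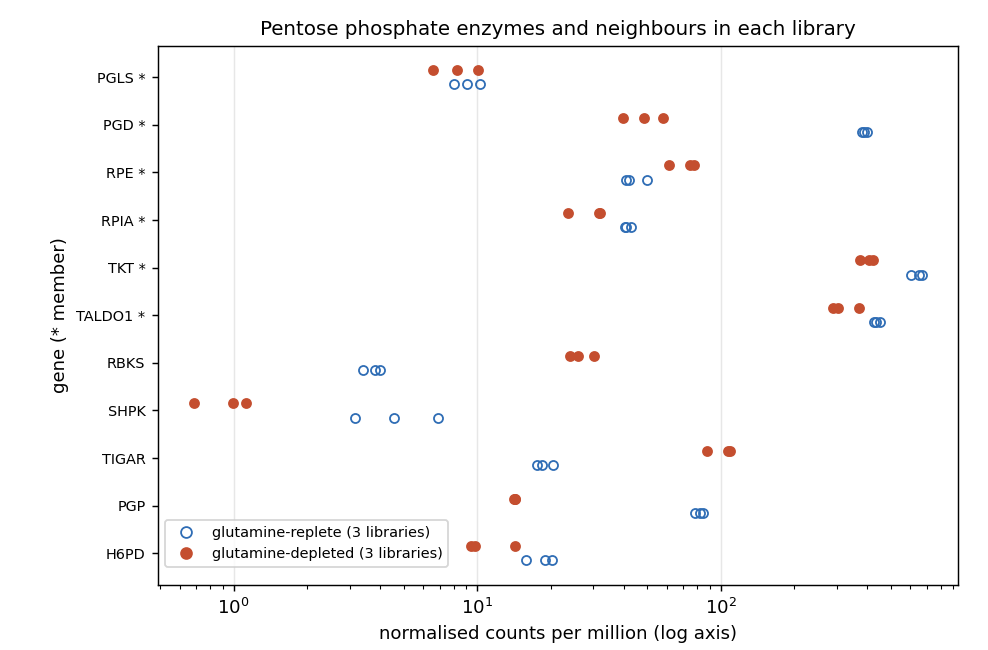
Normalised CPM (log axis) in each library for pentose phosphate enzymes (asterisk: one of the 30 genes) and genes near the pathway, filled points for depleted and open points for replete libraries. PGD lies at 378 to 397 in replete and 39.6 to 57.7 in depleted libraries, while TIGAR and RBKS lie higher in depleted libraries.

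Set side by side, the 3 stretches of the pathway are described by counts and medians, and differences between them were not tested. Over all tested genes 39.4% fell, 39.1% rose and 23.7% were more than 2-fold lower, and counts of so few genes are read beside those shares only. Of 11 upper glycolysis genes 9 fell and 1, PFKP, rose, with a median log2 fold change of −0.80 and 5 more than 2-fold lower. Of 6 lower glycolysis genes 4 fell and 1, ENO1, rose, with a median of −0.38 and a range from −0.81 to 0.44, so none reached 2-fold, with the exception of PKM under those 2 other scalings. Of 6 pentose phosphate genes 4 fell and 1, RPE, rose, with a median of −0.48 and a range from −3.0 to 0.69. For the 4 lactate genes 3 fell and 1, SLC16A1, rose (median −0.65), and of the 3 PFKFB genes 2 rose and 1 fell. As shares of all counts, upper glycolysis took 0.172% ± 0.0129 (SD, n = 3) in depleted and 0.255% ± 0.00297 in replete libraries. Lower glycolysis took 0.555% ± 0.0641 and 0.650% ± 0.00783, and pentose phosphate genes took 0.0811% ± 0.00525 and 0.169% ± 0.00432, each pair of ranges without overlap. These shares are of unscaled library totals. With trimmed-mean scaling the summed levels of lower glycolysis overlap, and their group means are nearly equal.

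Genes around these steps were taken from a list of 65, of which 43 had enough counts to be tested. Of these, 28 fell and 8 rose (median log2 fold change −0.67), against the 39.4% and 39.1% of all tested genes given above. TIGAR, a phosphatase that removes the activator of phosphofructokinase and is a p53 target, was at 109, 87.5 and 108 normalised CPM in depleted and 20.4, 18.4 and 17.7 in replete libraries, a 5.38-fold rise (2.43, SE 0.11, edgeR adjusted p = 5.20e-10). RBKS, ribokinase, was at 25.8, 30.2 and 24.1 against 3.97, 3.39 and 3.80 (2.84, SE 0.16, edgeR adjusted p = 3.02e-09). ENO3, the muscle enolase, rose from 2.35 ± 0.402 to 14.3 ± 2.94 (2.59, edgeR adjusted p = 1.62e-07), and PGM2, which handles pentose phosphates, rose by 0.82. Among the genes of the list with the smallest p-values that fell were the phosphatase PGP (−2.52), the glycogen phosphorylase PYGL (−1.94) and PDK1, a kinase that holds back pyruvate dehydrogenase (−2.09). PGP was at 14.3, 14.1 and 14.3 against 78.1, 82.3 and 84.7 (edgeR adjusted p = 8.51e-11). PYGL fell from 104 ± 1.77 to 27.0 ± 1.09 and PDK1 from 71.1 ± 1.90 to 16.7 ± 0.914. BSG, the chaperone that brings MCT1 and MCT4 to the cell surface, was at 52.1 ± 2.34 in depleted and 59.0 ± 1.86 in replete libraries (−0.18, edgeR adjusted p = 0.0720, with 0.000741 to 0.230 over its alternatives). EMB, another chaperone of lactate carriers, fell (−2.37, edgeR adjusted p = 9.19e-07).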

How the data were processed

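Each of the 6 libraries has a deposited table of whole-number counts, with 25737 entries for 24462 gene symbols. Bowtie2, edgeR and hg19 are named, without role or version, per the submitters' processing notes. Which program counted the reads, with which annotation and strand setting, is not given in the sources used here. Counts of the 286 symbols on several entries were summed, and none of the 30 genes is among them. Genes were kept by filterByExpr (minimum count 10, minimum total 15) and tested with edgeR 4.0.16's robust quasi-likelihood test in R 4.3.3 (two-sided, trimmed-mean factors 0.917 to 1.09, Benjamini-Hochberg over 12739 genes, threshold 0.05). A standard error is the size of the log2 fold change divided by the square root of the test's F. The edgeR fit, with its main settings, was also run on simulated data. Ratios, permutations and figures used Python 3.11.15 with scipy 1.17.1, and exon overlaps used GENCODE 29, on another build than the counts. The 30 genes and the lists were chosen with earlier results of these data known. Named were all 30 and, of the 65 others, the 4 smallest p in each direction plus TIGAR and BSG, except for 1 gene that is not reported here. Genes that overlap a named gene, and PGAM4, HKDC1, SLC2A6, SLC2A8, SLC2A12, SLC2A13, SLC16A7 and EMB, were named after the results were seen. Alternatives were DESeq2 size factors, library totals, upper quartile factors, no filter, a mean CPM of at least 10, DESeq2 1.42.0, limma-voom (limma 3.58.1), a replicate block, leaving out each library, the largest entry per symbol and, added after seeing the data, removal of a GC and length trend.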

Additional observations from a re-analysis of the deposited data

How the results depend on the processing

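Of the 30 genes, 24 kept their direction and side of the threshold under every one of the 16 alternatives that could test them, and PFKP, PFKL, ALDOA, GAPDH, ENO2 and PGLS did not. A mean CPM of at least 10 left ALDOC, PFKFB4, ENO2 and PGLS untested, fewer genes by construction. The sign turned for ALDOA with library totals (−0.12) and upper quartile factors (−0.10), for ENO2 with the GC and length trend removed (0.086) and over leave-one-out fits (−0.254 to 0.102, positive without depleted replicate 1 or replete replicate 2), and for PGLS with the trend removed (0.143) and over leave-one-out fits (−0.299 to 0.015, positive without depleted replicate 1), none of which passed. BSG turned with the trend removed (0.15). Over leave-one-out fits 6 to 7 of the 30 genes rose and 20 to 21 fell. In upper glycolysis 1 to 2 rose in them, 2 with the trend removed, and 0 with library totals or upper quartile factors. Leave-one-out medians ran from −0.69 to −0.61 for lactate genes and from −0.78 to −0.62 for the tested genes among the 65 others. The SLC2A1/SLC2A3 difference ran from −0.053 to 0.060, positive without depleted replicate 2, depleted replicate 3 or replete replicate 1. Medians moved by scaling, by its own construction: with library totals they were −0.80 (all 30), −1.03 (upper), 0.33 (PFKFB), −0.60 (lower), −0.88 (lactate), −0.70 (pentose) and −0.89 (other genes). With upper quartile factors they were −0.79, −1.01, 0.35, −0.58, −0.86, −0.69 and −0.88. With the trend removed they were −0.72 (upper), 0.74 (PFKFB), −0.71 (lactate), −0.38 (pentose) and −0.85 (other genes), and the cause was not tested. With a mean CPM of at least 10 they were −0.68 (all 30), 1.29 (PFKFB, 0 lower), −0.53 (lower), −0.75 (lactate) and −0.61 (pentose). Under that filter 4 of the other genes rose. Fewer genes are tested there, but every lactate gene was still tested and the lactate median moved too. That move was not particular to the lactate genes. Each of the 30 genes still tested under that filter had a lower log2 fold change than in the main fit, by nearly the same amount. The cause of this common shift was not tested. Replicate numbers are shared across groups, but same-numbered libraries deviated together at correlations of only 0.12, 0.01 and 0.04, and depleted replicate 2 correlated best with replete replicate 3 (0.05). The replicate block gave 4941 higher and 4999 lower genes in place of 4987 and 5025 and changed no call among the 30. Depth limits ALDOC, ENO2, PGLS and PFKFB4, which have few counts.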
